A study of Homo sapiens with 4 samples.

Results

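Of the 65601 skipped exon events in the table, 9412 belong to pairs of exons that lie between the same 2 flanking exons of a gene and do not overlap each other. An event entered when another event of its gene had the same end of the exon before and the same start of the exon after, the exons did not overlap, and each of both events averaged 20 or more junction reads over the 4 libraries. Junction reads are reads that cross a splice junction, counted here for inclusion and for skipping. The members make 5737 pairs of 7834 exons in 2659 genes, between 4257 pairs of flanking exons, of which 3576 hold 1 pair of exons and the fullest holds 30 pairs. They are 17.3% of the 54503 events that reach the read minimum. The least covered member had a mean of 20 reads and the best covered event under the minimum 19.75, and 432 events with the same flanks as a member stayed under it.

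The cells were 293T, a human embryonic kidney line. Per the labels, 2 libraries came from cells that had received a gapmer antisense oligonucleotide (ASO) against SNORD89, given at 70 nM with a lipid reagent, and 2 from cells with no ASO. A gapmer is a modified DNA strand whose pairing with an RNA lets RNase H cut that RNA. SNORD89 belongs to the box C/D small nucleolar RNAs. RNA selected for poly(A) was taken 48 h after transfection and read as pairs of 150 nt. All 4 libraries come from the 1 line, no control ASO is named, and the labels call the libraries biological replicates without naming separate cultures, so the p-values measure the spread between these libraries only. The headers do not tell which set received the ASO, so directions are given as the first set of the table against the second. The libraries of a set are named by their place in the table. The table holds no gene levels, and SNORD89 itself and markers of the line are not analysed here.

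When 2 exons lie side by side between the same flanking exons, the spliceosome can join both to each other, keep 1 of them, or skip both. Neighbouring exons that are spliced in as alternatives, called mutually exclusive exons, often arose by duplication of an exon, and a gene can then swap a stretch of its protein for a similar one. Tandem cassette exons, by contrast, can be included together.

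The letters of 5 such alternatives are shown first. They are from the pairs of equal length and of coding sequence in which almost no counted reads joined both exons or skipped both. Where no event counts reads that join both, as in ACTN4, the joined share was set to 0 and not measured. Each line gives the hg19 position of the exon and its sequence from the GENCODE release 29 transcripts, 5′ to 3′ in the direction of the gene, and capitals mark the positions at which the 2 exons differ when laid side by side without gaps.
U2AF1 5′ exon, chr21:44521476-44521542: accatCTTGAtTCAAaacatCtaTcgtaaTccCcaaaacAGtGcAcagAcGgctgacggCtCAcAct
U2AF1 3′ exon, chr21:44520563-44520629: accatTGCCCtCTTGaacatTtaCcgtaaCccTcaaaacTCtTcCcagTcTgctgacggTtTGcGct
ACTN4 5′ exon, chr19:39200897-39200982: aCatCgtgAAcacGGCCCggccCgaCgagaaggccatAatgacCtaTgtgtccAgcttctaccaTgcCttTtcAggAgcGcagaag
ACTN4 3′ exon, chr19:39201916-39202001: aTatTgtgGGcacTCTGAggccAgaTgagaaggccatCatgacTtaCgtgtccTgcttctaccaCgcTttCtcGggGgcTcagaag
RAB6A 5′ exon, chr11:73429830-73429935: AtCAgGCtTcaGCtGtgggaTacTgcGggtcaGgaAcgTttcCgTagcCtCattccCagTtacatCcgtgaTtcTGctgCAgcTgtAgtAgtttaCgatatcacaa
RAB6A 3′ exon, chr11:73429658-73429763: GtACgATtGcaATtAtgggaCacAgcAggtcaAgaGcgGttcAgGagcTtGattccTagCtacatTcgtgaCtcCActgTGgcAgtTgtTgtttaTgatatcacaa
CALU 5′ exon, chr7:128394316-128394509: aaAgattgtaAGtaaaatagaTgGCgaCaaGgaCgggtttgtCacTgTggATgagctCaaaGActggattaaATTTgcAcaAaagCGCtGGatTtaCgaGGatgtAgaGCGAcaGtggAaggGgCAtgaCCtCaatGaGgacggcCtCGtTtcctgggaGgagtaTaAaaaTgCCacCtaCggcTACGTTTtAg
CALU 3′ exon, chr7:128394583-128394776: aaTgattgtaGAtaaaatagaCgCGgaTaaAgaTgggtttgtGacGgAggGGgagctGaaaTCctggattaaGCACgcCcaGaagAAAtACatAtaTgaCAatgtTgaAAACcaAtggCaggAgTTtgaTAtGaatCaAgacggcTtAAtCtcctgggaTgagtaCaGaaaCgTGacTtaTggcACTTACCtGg
P4HA1 5′ exon, chr10:74804739-74804809: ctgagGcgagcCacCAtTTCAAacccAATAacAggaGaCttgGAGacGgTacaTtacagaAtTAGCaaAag
P4HA1 3′ exon, chr10:74803645-74803715: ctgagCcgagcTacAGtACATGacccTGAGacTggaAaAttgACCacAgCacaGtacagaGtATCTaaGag
The exons of U2AF1, on the minus strand of chromosome 21, are 67 nt long and differ at 23 positions. Those of ACTN4, on the plus strand of chromosome 19, are 86 nt long and differ at 21 positions. The exons of RAB6A on the minus strand of chromosome 11 differ at 31 of 106 positions, and those of CALU on the plus strand of chromosome 7 at 67 of 194. In P4HA1, on the minus strand of chromosome 10, 28 of 71 positions differ. The P4HA1 exons thus share 60.6% of positions and the ACTN4 exons 75.6%.

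Another pair is shown by contrast and was picked by name after its values were seen. PKM holds the textbook example of exclusive exons, of which 1 was used almost alone in these cells.
PKM 5′ exon, chr15:72495363-72495529: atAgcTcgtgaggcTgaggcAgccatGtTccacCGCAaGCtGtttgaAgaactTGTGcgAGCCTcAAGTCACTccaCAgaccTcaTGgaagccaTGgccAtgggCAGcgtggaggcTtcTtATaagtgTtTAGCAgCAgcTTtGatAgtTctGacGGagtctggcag
PKM 3′ exon, chr15:72494795-72494961: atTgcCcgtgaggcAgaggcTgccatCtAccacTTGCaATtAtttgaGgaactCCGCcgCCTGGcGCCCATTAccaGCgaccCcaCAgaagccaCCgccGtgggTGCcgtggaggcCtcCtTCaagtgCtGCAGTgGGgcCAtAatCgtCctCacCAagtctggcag
The PKM exons, on the minus strand of chromosome 15, differ at 62 of 167 positions.

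In most pairs whose splice paths could be read, the exons were used together and not in place of each other. For 4129 pairs the table holds events that count reads on each of 4 splice paths, which are both exons joined, the 5′ exon alone, the 3′ exon alone, and both skipped. Only pairs for which events of the table join the 2 exons can be among them, and pairs with no such event are left out. Reads that join the exons are an estimate, obtained by subtraction from 2 events, whereas the other paths have a junction of their own. In 3532 pairs these path reads averaged at least 20 and the 2 estimates lay close together, within 20% of the larger or 5% of the path reads. Among these, the exons were joined in at least 5% of path reads in 3006 pairs (85.1%) and in over 50% of path reads in 2498 pairs (70.7%), and the median share was 88.1%. The joined share was 95% or more in 1203 pairs, and both exons were skipped in 95% or more of path reads in 108 pairs. Under 5% joining with only 1 exon at 5% or more, or none, was found in 352 pairs, and under 5% joining with each exon alone at 5% or more in 66. The other 1803 pairs mixed the paths. In 976 pairs no event of the table joins the 2 exons. In 740 of these other junctions touch the exons, and of the rest 15 had each exon alone at 5% or more of reads. The joined share of these 15 was set to 0, since no event counts it. The pairs used 1 exon at a time were thus 81, while 1969 of the 5737 pairs could not be classed. With the pairs that other junctions touch counted as well, they were 311, and 339 when pairs lying in 1 longer exon were added, so their number depends on the definition.

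**Figure D1:**
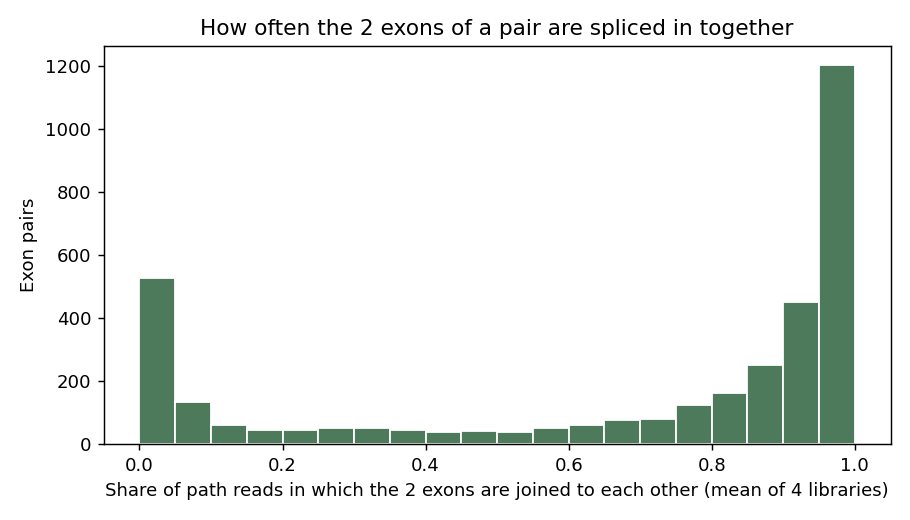
Exon pairs (vertical axis, number of pairs) by the share of path reads in which the 2 exons are joined to each other (horizontal axis, mean of 4 libraries, steps of 0.05), for the 3532 pairs with reads on 4 paths. The tallest bar, 1203 pairs, is at 0.95 or more, and 526 pairs lie under 0.05.

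The 81 pairs used 1 exon at a time fell apart by how often both exons were skipped. In 51 of them the skipped path held at least 50% of reads, with a median share of 0.760. In 13 it held 10 to 50%. In the other 17, in 17 genes, skipping was under 10% and the counted reads were mostly on paths with 1 of the 2 exons. Where no event joins the exons, the joined share was set to 0 and not measured. Those named here are ACTN4, CALU, C11orf74, FYN, NAP1L1, NGLY1, NNT, P4HA1, P4HA2, RAB6A, TCF3, TEX22, U2AF1 and 3 loci named after clones or a read-through of neighbouring genes (AC037459.4, AP000275.65 and RBM14-RBM4), whose reads may be shared with other genes and are uncertain. The limits that define this group, including the 10%, were set after values were seen and with textbook pairs in view, so that the presence of such pairs in it is a description. Both exons had the same length in 6 of the 17, against 64 of all 5737 pairs (1.12%), and the lengths differed by a multiple of 3 in 13 of 17, against 37.3% of all pairs. Aligned with gaps, the 2 exons were at least 65% identical in 7 of 17, against 1.24% of the 5547 pairs with a sequence, and the median identity was 59.4% against 46.7%. In 13 of the 17 both exons were coding, against 59.8% of the 5561 matched pairs and 91.3% of matched pairs joined in 95% or more of path reads.

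How a pair divided its reads was taken from the inclusion reads of the 2 exons, corrected for the length that can give them, as the share of the 5′ exon. U2AF1 encodes the small subunit of the factor that recognises the 3′ splice site. Its 5′ exon had 1452 and 1522 inclusion reads in the first set against 2083 and 1728 in the second, and its 3′ exon 3565, 3846, 5048 and 4705. The share of the 5′ exon was 0.289 and 0.284 in the first set against 0.292 and 0.269 in the second, so the 3′ exon led in each library and the sets overlapped. Both exons were skipped in at most 5 reads of a library.

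ACTN4 encodes an alpha-actinin, which crosslinks actin filaments. The share of its 5′ exon was 0.942 and 0.955 in the first set against 0.907 and 0.939 in the second, with 60 to 84 reads a library on the 3′ exon. The sets lay apart, by less than the libraries of the second set differed from each other. CALU encodes calumenin, a calcium-binding protein of the secretory pathway. The share of its 5′ exon was 0.774 and 0.781 in the first set against 0.777 and 0.80 in the second, so the sets overlapped, and its 2 exons are 73 nt apart. FYN encodes a kinase of the Src family. The share of its 5′ exon was 0.537 and 0.556 in the first set against 0.494 and 0.606 in the second, so that the exons were near balance in each library and the second set spanned the first.

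P4HA1 and P4HA2 encode catalytic subunits of the enzyme that hydroxylates prolines of collagen. The share of the 5′ exon of P4HA1 was 0.358 and 0.323 in the first set against 0.289 and 0.360 in the second. In P4HA2 it was 0.848 and 0.841 against 0.887 and 0.706, with 19 to 48 reads on the 3′ exon. P4HA1 thus leaned to its 3′ exon and P4HA2 to its 5′ exon in each of the 4 libraries. The exons were not aligned between the 2 genes, so exons of the same order need not correspond.

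NNT and RAB6A were the pairs of these 17 with a difference of at least 0.1 between the sets. NNT encodes the mitochondrial transhydrogenase that makes NADPH. Its 5′ exon had 83 and 61 inclusion reads in the first set against 12 and 6 in the second, and its 3′ exon 156, 98, 52 and 72. The share of the 5′ exon was 0.347 and 0.384 in the first set against 0.188 and 0.0769 in the second, so the sets did not overlap. The difference of 0.233 did not pass the test (adjusted p = 0.462, quasi-binomial model with limma's moderated dispersion). In the authors' deposited table the 5′ exon of NNT alone was called, with a difference in inclusion level of 0.334 and an FDR of 0.032. RAB6A encodes a small GTPase of the Golgi. The share of its 5′ exon was 0.587 and 0.605 in the first set against 0.550 and 0.438 in the second. The difference of 0.102 did not pass the test either (adjusted p = 0.777 in the same model), and 1 library, the second of the second set, held most of it, since the difference was 0.0456 without that library.

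For 3 of the 17 the share from inclusion reads differed from the share of the junctions that hold 1 exon alone by more than 0.2. In NAP1L1, which encodes a nucleosome assembly protein, the 5′ exon had a mean share of 0.154 of the inclusion reads but 0.917 of the single-exon junctions. In C11orf74 these were 0.435 and 0.0621, and in TCF3, whose alternatives give the transcription factors E12 and E47, 0.317 and 0.544. Inclusion reads can also come from transcripts that join the exon to its neighbour on 1 side only, so the use of either exon is uncertain in these 3 genes. The part of such transcripts was not tested.

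**Figure D2:**
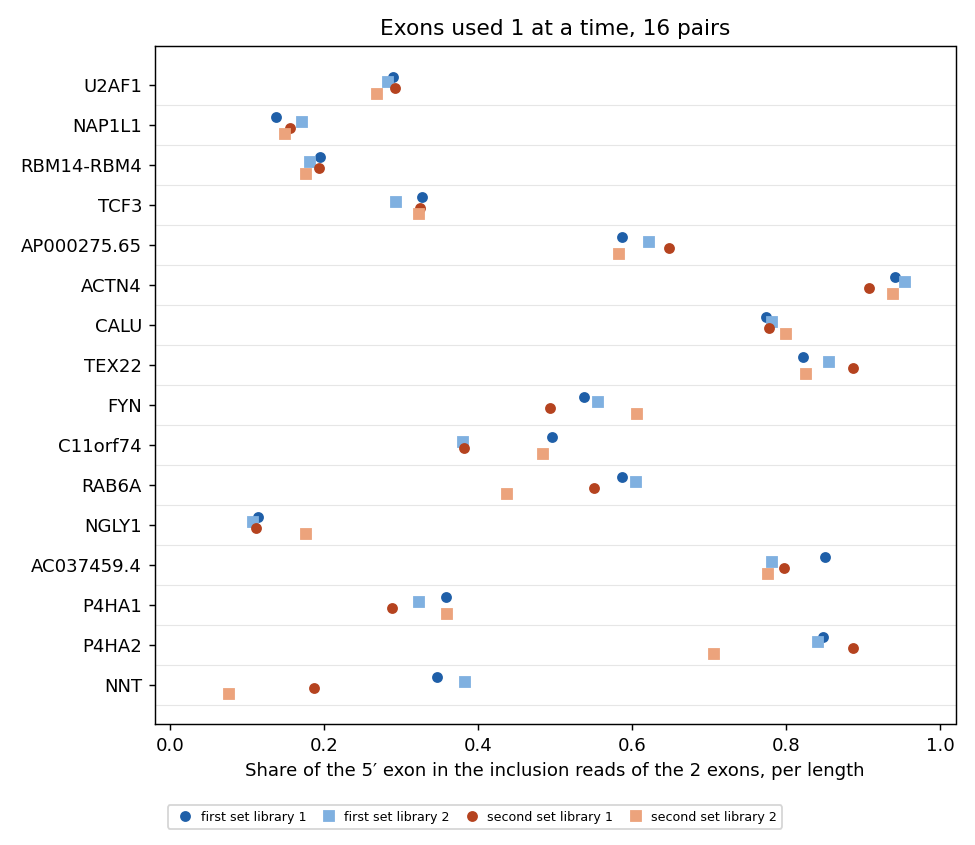
Share of the 5′ exon in the inclusion reads of the 2 exons, per length (horizontal axis), for 16 of the 17 pairs used 1 exon at a time with skipping under 10% (vertical axis, by gene, deepest at the top), with 1 symbol for each of the 4 libraries. NNT stands out with 0.347 and 0.384 in the first set against 0.188 and 0.0769 in the second, and U2AF1 stays between 0.269 and 0.292.

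Of 44 genes listed as textbook cases of mutually exclusive exons, 16 had a pair here. Pairs were taken by gene name, so a pair of such a gene need not be its textbook pair. The list was written with earlier results of these data known. Of its 48 events, 0 were called from the authors' deposited table (FDR under 0.05, difference of 0.1 or more), where 2.71% of all events were, a share that would be about 1 event, and their median difference in inclusion level was 0.001, against -0.002 over all events with 20 reads. PKM encodes pyruvate kinase, and its 5′ exon and 3′ exon belong to the M1 and M2 forms of the enzyme. The share of the 5′ exon was 0.0183 and 0.0179 in the first set against 0.0144 and 0.0187 in the second, on 216 to 333 reads of that exon, so the M2 exon held nearly all reads in each library. The interval of the difference, with a confidence of 95%, was -0.00303 to 0.00577. MEF2A encodes a muscle transcription factor, and its exons of 127 nt each were joined in 79.5% of path reads. The share of its 5′ exon was 0.464 and 0.504 in the first set against 0.483 and 0.864 in the second, where 8 reads were left on the 3′ exon, and its difference did not pass the test (adjusted p = 0.802, same model). TPM2 encodes a tropomyosin. Its 5′ exon took 0.130 and 0.302 in the first set against 0.254 and 0.284 in the second, and its exons of 76 nt each were joined in 32.8% of path reads by the estimate from subtraction. FGFR3 encodes a fibroblast growth factor receptor. Its exons of 151 and 145 nt were joined in 29.7% of path reads and the 3′ exon was used alone in 64.6%. KHK encodes ketohexokinase, the first enzyme of fructose use, and its exons of 117 and 135 nt were joined in 69.1% of path reads. In MAPK9, a stress-activated kinase gene, the 3′ exon of 169 nt was used alone in 75.9%. In FGFR1 the 5′ exon of 267 nt was used alone in 43.5% and both exons were skipped in 54.6%. In FGFR2 the share of the 5′ exon was 0.655 and 0.673 in the first set against 0.522 and 0.699 in the second, and in MEF2D 0.466 and 0.455 against 0.480 and 0.582, so the sets overlapped in FGFR2 and lay apart in MEF2D (adjusted p = 0.928 in the same model).

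Among the 8 pairs of flanks with the most similar exons, SLC3A2 had alike exons that were mostly joined. SLC3A2 encodes the heavy chain of amino acid transporters. Its exons, of 93 nt each and 82.8% identical, were joined in 59.3% of path reads and the 3′ exon was used alone in 32.1%. INO80C, of a chromatin remodelling complex, had the most similar exons, of 54 nt each and 90.7% identical, and both were skipped in 94.0% of path reads. Both exons were likewise skipped in 98.7% of reads in LGMN, 98.5% in ZNF410 and 99.1% in CLN3, whose exons were 79.8%, 83.6% and 78.4% identical. Of 18 pairs with at least 70% identity and no wholly coding exon, in 12 genes, 15 had only non-coding exons and 3 held a partly coding one. Their 26 exons were 70 to 155 nt long and 22 of them were at least 70% identical to an exon of another of the 12 genes. ATG13 and LGMN are an example, with exons 89.0% identical across the genes. In GAPVD1 the same 2 non-coding exons make a pair between either of 2 sets of flanks. In the authors' deposited table the 3′ exon was called between 1 of them, by -0.417 in inclusion level (FDR 0.002), and not between the other, at -0.255 (FDR 0.078).

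Exons that lay very close to each other were rarely joined by an event. The 2 exons lay under 70 nt apart in 95 pairs, and in 93 of these no event joined them. The shortest distance across which an event joined 2 exons was 67 nt. In 27 pairs, which are among the 93, the exons abut with 0 nt between them, so that no junction can join them. Among the 17 pairs described above, P4HA2 with 49 nt and RAB6A with 66 nt were under this distance. The median distance was 2096 nt over all pairs, 1348 nt where the exons were nearly always joined, and 3352 nt over all pairs that no event joins.

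The question of which exon is chosen could be tested in 4910 pairs with a mean of at least 20 inclusion reads. In the model used here, 20 pairs (0.407%) had an adjusted p under 0.05, and of these 1 (0.0204%) also differed by at least 0.1. At an unadjusted p under 0.05 there were 358 pairs (7.29%), and the sets did not overlap in 1756 (35.8%). Limma on the log2 ratio of reads called 0 pairs, with 235 under an unadjusted p of 0.05 and its lowest adjusted p at 0.867. The planned count model could not be used on this table, and the model's treatment of pairs with 1 kind of read was settled after its calls had been seen. The version run first called 0 pairs with a difference of at least 0.1, and 3 at an adjusted p under 0.05.

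The 1 called pair is in RABEP1, which encodes rabaptin-5, an effector of Rab5 in the fusion of early endosomes. Its 2 coding exons, of 161 and 120 nt on chromosome 17, at 5238479 to 5238639 and 5241314 to 5241433 of the plus strand, were joined in 98.0% of path reads. The 5′ exon had 521 and 476 inclusion reads in the first set against 467 and 564 in the second, while the 3′ exon had 225, 140, 71 and 75. The share of the 5′ exon was 0.676 and 0.754 in the first set against 0.856 and 0.872 in the second, so the sets did not overlap and the 3′ exon had fewer reads in the second. The difference was -0.148 (adjusted p = 0.0281). Limma gave an adjusted p of 0.898, the version run first 0.154, and the reported model gave 1 without library 1 of the first set and 0.207 without library 2 of it. In the authors' deposited table neither exon of RABEP1 was called, with FDR values of 1. Most path reads joined both exons, yet the 5′ exon had more inclusion reads than the 3′ exon in each library. The cause of this was not tested.

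The other 19 pairs past the threshold are in 16 genes with many reads, at least 2310.5 inclusion reads on average, and in each the 5′ exon had the larger share in the first set, by 0.0307 to 0.0958. They include ribosomal and translation genes (RPL5, RPL10, RPS13, GNB2L1), the glycolytic enzyme gene GAPDH, the ATP synthase subunit gene ATP5B and the creatine kinase gene CKB. In CKB the share was 0.498 and 0.495 in the first set against 0.451 and 0.447 in the second. In YBX1, a cold-shock domain protein that binds RNA, it was 0.323 and 0.311 against 0.277 and 0.261. In NT5C3B, a nucleotidase gene, it was 0.441 and 0.444 against 0.322 and 0.371, the widest difference of these 19. Among the 8 deepest pairs in which each exon took at least 0.2 of the reads, in EEF1G, GNB2L1, RPL10, RPL13A, RPS2 and RPS3, which encode translation factors or ribosome proteins, the pairs that did not pass include EEF1G. Its share was 0.50 and 0.485 in the first set against 0.479 and 0.480 in the second (adjusted p = 0.497). In RPL13A it was 0.639 and 0.666 against 0.688 and 0.649, in RPS3 0.423 and 0.447 against 0.443 and 0.371, and in the deeper pair of RPS2 0.385 and 0.348 against 0.317 and 0.355, so the sets overlapped in these 3 genes.

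A shift of this direction was also present where the exons were hardly ever chosen between. In the 1203 pairs joined in 95% or more of path reads, the 5′ exon had the larger share in the first set in 734 (61.0%), and the median difference was 0.0107. The median share of the 5′ exon in them was 0.488 in each library of the first set, against 0.466 and 0.474 in the second. Over all 4910 tested pairs 56.7% were higher in the first set, with a median difference of 0.00613. The share of reads on the 5′ exon of jointly used exons, which is not a choice between exons, thus differed in the same direction as the 19 pairs, 12 of the 20 pairs with an adjusted p under 0.05 were of this class, and its part in these results was not tested.

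**Figure D3:**
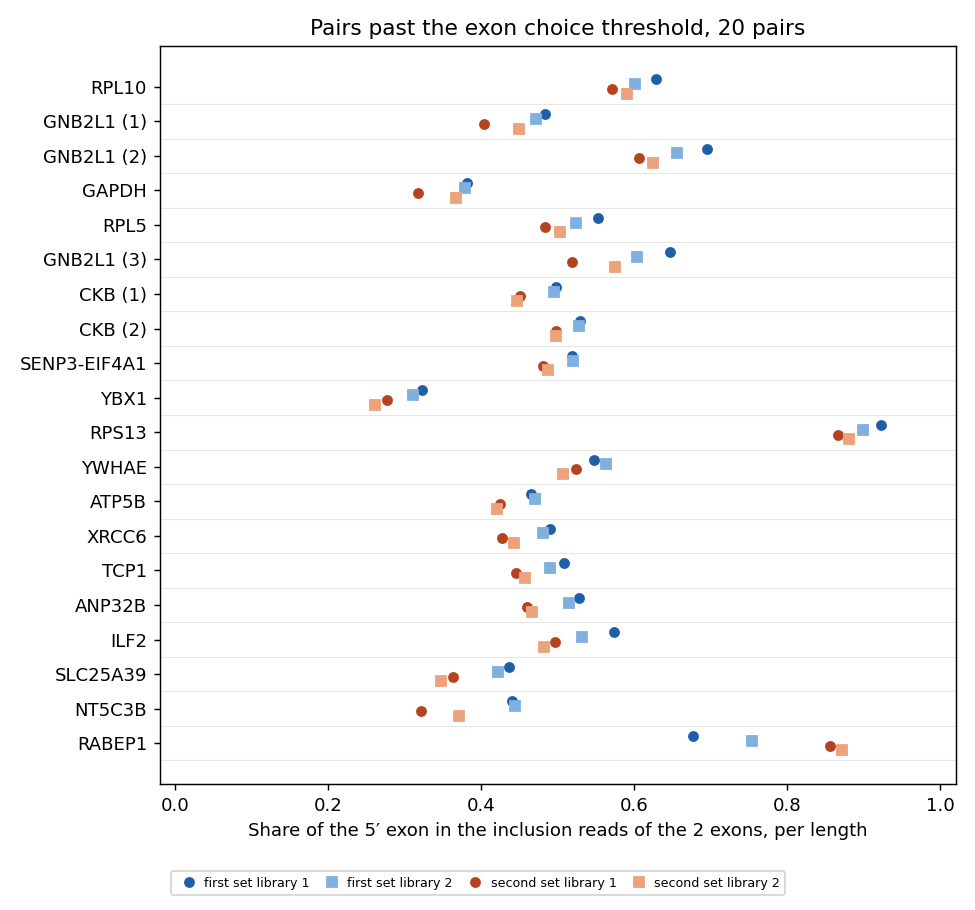
Share of the 5′ exon in the inclusion reads of the 2 exons, per length (horizontal axis), for the 20 pairs with an adjusted p under 0.05 in the exon choice test (vertical axis, by gene, deepest at the top), with 1 symbol for each of the 4 libraries. In 19 pairs the first set lies above the second by 0.0307 to 0.0958, and in RABEP1 it lies below.

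Tested on the single-exon junctions alone, in 1581 pairs, 0 passed an adjusted p of 0.05 in the same model, with 92 under an unadjusted p of 0.05 and the lowest adjusted p at 0.245, and limma passed 0, with 74. Among the 81 pairs used 1 exon at a time, 69 had enough reads for the test on inclusion reads and 0 passed, with 2 at an unadjusted p under 0.05. In 10 of the 17 with little skipping the interval of the difference stayed within 0.1 either way, and in the other 7 it did not, so a difference of 0.1 lies within the interval there.

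By the authors' deposited table, 292 of the 9412 member events (3.1%) had an FDR under 0.05 and a difference in inclusion level of at least 0.1. The background was 2.71% of all 54503 events and 2.63% of the 45091 events that are no members. Of the 292, 149 were higher in the first set (1.58% of members, against 1.34% of all events and 1.29% of non-members) and 143 lower (1.52%, against 1.37% and 1.34%). The quasi-binomial model called 3 of the members (0.0319%), in DNAJB14, REPIN1 and CNOT1, against 9 of all 54503 events (0.0165%). It called 0 of the members in the version run first, with the same degrees of freedom for every exon. DNAJB14 encodes a co-chaperone of the endoplasmic reticulum, and the inclusion level of its exon was 0.242 and 0.123 in the first set against 0.784 and 1 in the second. In REPIN1, a zinc finger protein gene, it was 0.214 and 0.148 against 0.0377 and 0.0390. In CNOT1, the scaffold of the deadenylase complex, it was 0.118 and 0.167 against 0.417 and 0.311. The exon of DNAJB14 had few reads, with 15 and 30 for inclusion and 3 and 0 for skipping in the second set. These 3 were picked by the model, so that their sets did not overlap is no further result.

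In every pair the 2 exons share the reads that skip both, so that their calls are not independent. At least 1 exon was called in 304 pairs and both in 48, in 42 genes. Both moved in the same direction in 48 of 48, up in the first set in 17 and down in 31, and 0 pairs were called in opposite directions. Where 1 exon was called, the other had the same sign in 219 pairs and the opposite in 37. Skipping reads of 1 library stood apart from those of the other libraries. In the second set, library 2 had 0 skipping reads in 46.7% of member events, against 25.6 to 28.5% in the other libraries. Of the 31 pairs lower in the first set, 26 had 0 skipping reads in that library, and of the 17 higher, 13 had most skipping reads there. Without it 26 of the 48 kept differences of at least 0.1 for both exons, and 191 of the 292 called events did so, 84 higher and 107 lower.

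SOBP had the largest difference of a 5′ exon among the higher pairs. Inclusion reads of the 5′ exon were 25 and 13 in the first set against 12 and 11 in the second, against 0, 0, 4 and 16 skipping reads. Its differences were 0.529 and 0.263 in the authors' deposited table, with FDR values of 1.5e-05 and 6.2e-05. ARVCF, a catenin gene, had 0, 1, 13 and 34 skipping reads and differences of 0.408 and 0.514 in that table. ZNF92, a zinc finger gene, had 25, 10, 0 and 0 skipping reads and differences of -0.381 and -0.430 in that table. HDAC10, a polyamine deacetylase gene, had 6, 13, 2 and 0, with differences of -0.277 and -0.372 in that table. IRF3, the transcription factor of the interferon response, was the deepest of the higher pairs named here, with 36, 37, 90 and 77 skipping reads and 338, 364, 384 and 384 inclusion reads of its 3′ exon. Its differences were 0.166 and 0.130 in the authors' deposited table, and both libraries of the second set had more skipping reads than either of the first.

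**Figure D4:**
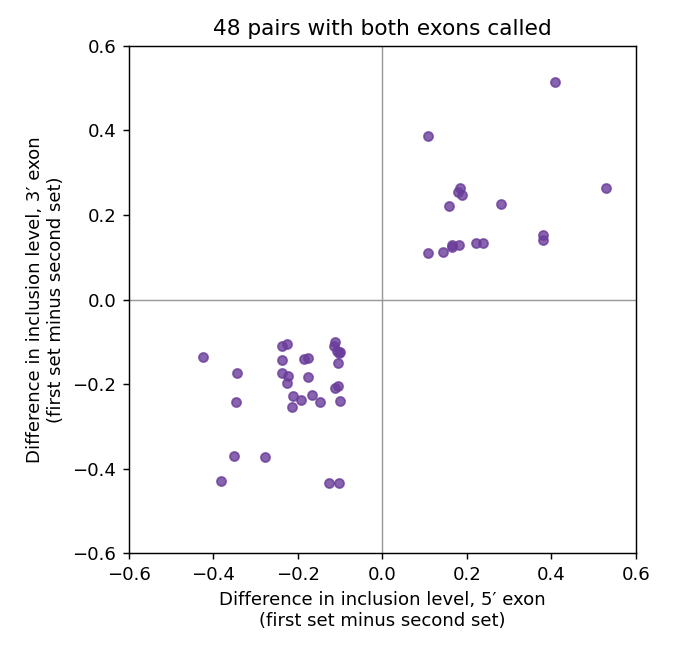
Difference in inclusion level, first set minus second set, of the 3′ exon (vertical axis) against that of the 5′ exon (horizontal axis) in the authors' deposited table, 1 point for each of the 48 pairs with both exons called. The points lie in the upper right (17 pairs) and the lower left (31 pairs); the 2 exons of a pair share their skipping reads.

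Genes listed for clusters of tandem cassette exons had a pair in 18 of 36 cases, with 2 of 59 events called, which is near the 2.71% of all events, and a median difference in inclusion level of 0.009, against -0.002 over all events. The called ones were the 5′ exons of pairs in CAMK2G, a calcium-dependent kinase gene, and in ANK3, an ankyrin gene. Their differences in the authors' deposited table were 0.126 and -0.115. The ANK3 exon had few inclusion reads, 1 and 0 in the first set against 2 and 6 in the second. Its skipping reads in the same order were 57, 49, 23 and 20. In APP, the gene of the amyloid precursor, the 2 exons were joined in 34.9% of path reads, the 5′ exon was used alone in 53.0% and both were skipped in 11.8%. Its close relative APLP2 had the 5′ exon alone in 76.5% and both joined in 10.9%. In NUMB, an inhibitor of Notch, the 5′ exon was alone in 55.7% and joined in 41.1%. In CLTA, the clathrin light chain gene, a pair of exons of 38 and 118 nt was joined in 97.9% of path reads, while another pair, of 54 and 36 nt, had at most 8 inclusion reads of an exon against 2063 to 3145 skipping reads in a library. Pairs of the list thus ranged from nearly always joined to mostly used singly and nearly always skipped. Shares of paths come from bulk RNA and do not tell a mixture within each cell from a mixture of cells.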

How the data were processed

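Per the file headers, the deposited table has the layout of rMATS for skipped exons on junction reads; the submitters' processing notes name hg19, cutadapt and STAR. The rMATS version, annotation release and filters are not given in the sources used here. Inclusion and skipping reads are deposited as whole-number counts in 1 cell per set, inclusion levels as fractions made by the authors, with the authors' difference (a score) and the authors' rMATS p-value and FDR. The libraries held 38613055 and 39012939 (first set) and 42868431 and 43929373 (second set) junction reads. Intervals cover counting error or the model's error, as named.

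Exon choice was tested with a quasi-binomial model whose dispersion was moderated by squeezeVar of limma 3.58.1 (R 4.3.3) and never set under 1, adjusted by Benjamini-Hochberg over all tested pairs, and by limma on the log2 ratio with a pseudocount of 0.5. The count model planned at first could not be run, since the deposited cells hold comma-joined reads. 3 versions of the quasi-binomial model were run, and the one reported, in which a set gives degrees of freedom only where it holds both kinds of read, was chosen after its calls were seen. The model was also run on 4910 simulated pairs, of which 200 were changed by 0.3. The changed pairs were drawn only from well-covered pairs in which neither exon held nearly all reads. With binomial scatter it found 200, with 5 false, and with added scatter 40, with 0 false. Limma found 162 with binomial scatter, with 8 false, and 0 with added scatter, with 0 false. The added scatter was 1 set value, a correlation of 0.01. The power for pairs with few reads, for shares near 0 or 1, or at another scatter was not tested.

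Path classes, the agreement rule, the exclusions for pairs with no joining event, and the 10% limit on skipping were also set after values were seen, over several tries; the effect of each is given in the closing section. Members, gene lists and displayed sequences were chosen with earlier results of these data known. Named pairs follow a rule of 5 parts: called pairs, list 1 genes, oppositely called pairs, the most identical pairs and the deepest pairs with each exon at 0.2 or more; other pairs were named after their values were seen. Exons were matched to GENCODE release 29 by spacing within the gene (2642 of 2659 genes, 5561 of 5737 pairs), with no position converted. Individual values of some pairs are not reported here; counts over all pairs include them.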

Additional observations from a re-analysis of the deposited data

How the results depend on the processing

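The count of called member exons, 292, was 136 at a mean of 50 reads, 511 and 106 at differences of 0.05 and 0.2, 144 at an FDR under 0.01, 232 with 1 event per exon, and 3 in the quasi-binomial model (0 with the same degrees of freedom for every exon). Of the 292, 191 to 279 kept their direction and a difference of 0.1 or more when 1 library was left out, fewest without the second library of the second set; no FDR was computed again, so this number could only fall. The share higher in the first set, 51%, was 44% to 55.1% among those kept.

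The 1 pair called for exon choice became 0 with limma, 0 in the version of the model run first, 0 at a mean of 50 reads, 0 at a difference of 0.2, 2 at a mean of 10 reads, 9 at a difference of 0.05, 1 with a dispersion trended on reads and 0 on the single-exon junctions. Leaving out 1 library gave 0 to 118 calls: 0 without either library of the first set, 118 without the first and 7 without the second library of the second set. With 1 library left in a set, its spread is assumed to be that of the other set. The cause was not tested. The edgeR and DESeq2 alternatives were not run. No paired analysis was possible because the columns carry no replicate numbers.

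The definitions of pairs used 1 at a time were chosen after seeing the data. Their number, 81, was 72 under the first agreement rule, 85 with pairs lying in 1 longer exon, 311 with pairs that other junctions touch, 339 with both, and 66 without pairs that no event joins, so the number of such pairs depends on the definition. The 17 with little skipping were 14, 18 and 30 at limits of 0.05, 0.2 and 0.5, and 15 under the first agreement rule. Pairs with the exons joined, 3006, were 3283 and 2872 at minimum shares of 0.01 and 0.1. Of 31 tested pairs in textbook genes or among the 17, the difference of 22 changed sign, or reached 0, under at least 1 alternative. Of 155 alternative values, 154 moved by less than 1 SD. With 2 libraries in a set, leaving 1 out can move its mean only within the spread of that set. The count was thus nearly fixed in advance and is no sign of stability. MEF2A was counted as unmoved, although its difference went from -0.189 to 0.00156 without the second library of the second set. Few skipping reads limit most events.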
